A study of Mus musculus with 6 samples.

Results

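T cell identity and receptor signalling genes were followed in mouse corneas taken 12 months after injury by an open-field blast (OFBI). The members are 32 genes taken by symbol from the deposited tables, out of 22007 symbols, and all 32 were found. The list was drawn up with results of the OFBI and Naive comparison in view, in which lymphocyte genes were higher after OFBI, so their differences between the groups are given as a description. Corneas of male C57BL/6J mice were compared in 2 groups of 3 libraries, each library a pool of corneas that the series counts as a biological replicate. The OFBI mice had been exposed once, while awake, to a charge of 350 g of C-4, a plastic explosive, set off 3 m away. The Naive mice carry the same 12-month label and no blast. Neither the age of the animals, nor the number of corneas in a pool, nor any genetic modification is given in the sources used here. The p-values below measure the spread between these pools.

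T cells recognise antigen through a receptor whose variable chains sit in the membrane with the CD3 chains, which carry the signal inward. The coreceptors CD4 and CD8 bring the kinase Lck to the receptor, Lck phosphorylates the CD3 chains, and the kinase Zap70 docks there and phosphorylates the adaptors Lat and Lcp2. CD28 and ICOS strengthen that signal and CTLA4 restrains it. The normal cornea is a clear tissue without blood vessels that holds few T cells.

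Depth limits every value that follows. The Naive libraries held 41971752 to 47809779 estimated counts and the OFBI libraries 3410476, 3355422 and 1173472 for replicates 1, 2 and 3, a mean ratio of 16.7 between the groups. Every OFBI library was thus shallower than every Naive library, and effects of depth and of group cannot be told apart. Multiples of 4 made up 39.4% to 50.5% of the deposited values from 1 to 40, from which 1 fragment was taken as about 4 counts, an inference that many values do not follow. On that reading 12 counts stand for about 3 fragments. That floor of 12 counts is 0.251 to 0.286 CPM (counts scaled to a common library total) in a Naive library, 3.52 and 3.58 CPM in OFBI replicates 1 and 2, and 10.2 CPM in OFBI replicate 3. Intervals and floors cover counting error only. Krt12, the keratin that defines corneal epithelium, had 8860 to 11100 CPM in Naive and 22800 to 28600 CPM in OFBI libraries after TMM scaling, while the keratocyte gene Kera was at 0 in OFBI replicates 1 and 3 and at 20 counts in replicate 2, against 456 to 597 in Naive corneas, and did not pass the test. Of 10 cornea markers, Krt12 and the epithelial keratin Krt5 were called higher (log2 fold changes of 1.35 and 1.76), and the stromal gene Dcn and the endothelial transporter gene Slc4a11 lower (-1.46 and -2.29).

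The genes of 3 of the CD3 chains lie side by side on chromosome 9, and their start regions are shown with that of Cd247 because these 4 genes encode one complex and were all called higher after OFBI. Cd3g and Cd3d start 1355 bases apart and are read in opposite directions, and Cd3e starts 27.8 kb from Cd3d. The windows hold the 250 bases before each RefSeq start (GRCm38.p6), at chr9:44981536-44981785 on the plus strand for Cd3d, chr9:44980432-44980681 on the minus strand for Cd3g, chr9:45009612-45009861 on the minus strand for Cd3e and chr1:165788431-165788680 on the plus strand for Cd247. Capitals mark matches, on either strand, to the ETS letters GGAAGT or the GATA letters AGATAA.
Cd3d: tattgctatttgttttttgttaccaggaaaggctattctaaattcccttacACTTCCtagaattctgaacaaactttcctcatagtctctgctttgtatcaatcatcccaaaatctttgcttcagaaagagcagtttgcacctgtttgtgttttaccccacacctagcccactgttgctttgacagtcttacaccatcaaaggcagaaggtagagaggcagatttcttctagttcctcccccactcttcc
Cd3g: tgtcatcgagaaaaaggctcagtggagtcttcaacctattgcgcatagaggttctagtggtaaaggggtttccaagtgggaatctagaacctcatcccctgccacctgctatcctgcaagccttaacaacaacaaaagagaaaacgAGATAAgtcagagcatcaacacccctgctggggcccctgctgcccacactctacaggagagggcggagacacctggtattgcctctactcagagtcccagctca
Cd3e: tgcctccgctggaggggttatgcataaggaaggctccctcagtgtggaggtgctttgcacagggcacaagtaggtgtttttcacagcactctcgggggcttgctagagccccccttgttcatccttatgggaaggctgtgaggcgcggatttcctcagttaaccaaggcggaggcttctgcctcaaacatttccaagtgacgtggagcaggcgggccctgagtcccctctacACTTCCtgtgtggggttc
Cd247: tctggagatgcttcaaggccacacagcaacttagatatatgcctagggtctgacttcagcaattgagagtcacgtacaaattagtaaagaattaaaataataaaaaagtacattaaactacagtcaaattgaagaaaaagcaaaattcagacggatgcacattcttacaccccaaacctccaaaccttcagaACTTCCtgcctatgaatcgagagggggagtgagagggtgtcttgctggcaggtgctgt
The windows of Cd3d, Cd3e and Cd247 each held the ETS letters once, on the opposite strand, and that of Cd3g held the GATA letters once. RefSeq windows were found for 22 of the 32 members, 31 windows in all because some genes have several starts. Some of these windows overlap, and the same ETS match lay in both windows of Ptprc. The ETS letters were in 13 of these 31 windows, or 41.9%, and in 19.7% of all 32851 windows. RUNX letters (TGTGGT) were in 4 of the 31 windows and 14.0% of all, GATA letters in 3 and 9.99%, E-box letters (CAGCTG) in 3 and 13.0%, and TCF/LEF letters (CTTTGAA) in 1 and 4.46%. A match of letters is a description and shows no binding.

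After OFBI, the members as a whole were at several times their Naive share of the libraries, and in every OFBI library. Summed over the 32 genes, the OFBI libraries held 922, 319 and 640 deposited counts and the Naive libraries 1434, 1374 and 1139. At the Naive share, the depths of the OFBI libraries would give 101, 99.7 and 34.9 counts, so the observed sums were 9.1, 3.2 and 18.4 times that. In TMM-scaled CPM the sums were 285, 102 and 596 in OFBI and 28.3, 29.6 and 25.1 in Naive libraries. The lowest OFBI sum thus stood above the highest Naive sum, and the OFBI libraries spread far more widely than the Naive ones. In these bulk samples more T cells, more RNA per cell and an effect of depth cannot be told apart. The part of signals of other tissues, described below, was not tested.

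Of the 32 members, 25 passed the filter on low counts, and 20 of these were called higher and 0 lower by edgeR (quasi-likelihood test, adjusted p below 0.05 after Benjamini-Hochberg correction over 13941 genes). Over all tested genes 8.41% were called higher and 10.4% lower. The median log2 fold change was 3.67 over the tested members and -0.20 over all tested genes. At an unadjusted p below 0.05, 23 members and 14.4% of all tested genes were higher, and DESeq2 called 23 members and 13.3% of all tested genes higher, with 0 members lower by either. All 3 OFBI libraries lay above all 3 Naive libraries for 23 of the 25 tested members, against 16.4% of all tested genes. The rule behind the list had this contrast in view, and nothing is read from these shares. A member that is low in Naive corneas can also pass the filter through its OFBI counts alone: 11 of the 20 reached the filter level of 0.441 CPM in every Naive library and 9 did not. The 9 were Cd3d, Cd3g, Zap70, Skap1, Cd6, Cd27, Cd28, Ctla4 and Icos. Without Naive replicate 1, 2 or 3, edgeR called 0 members each time, with 22, 22 and 21 higher before adjustment at p below 0.05. Over all tested genes edgeR then called 0.802%, 0% and 0.793% higher, so the loss was not one of the members alone. DESeq2 called 20, 20 and 18 members on the same libraries, and 10.3%, 8.35% and 9.18% of all tested genes. Without OFBI replicate 1, 2 or 3, edgeR called 15, 24 and 21.

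**Figure D1:**
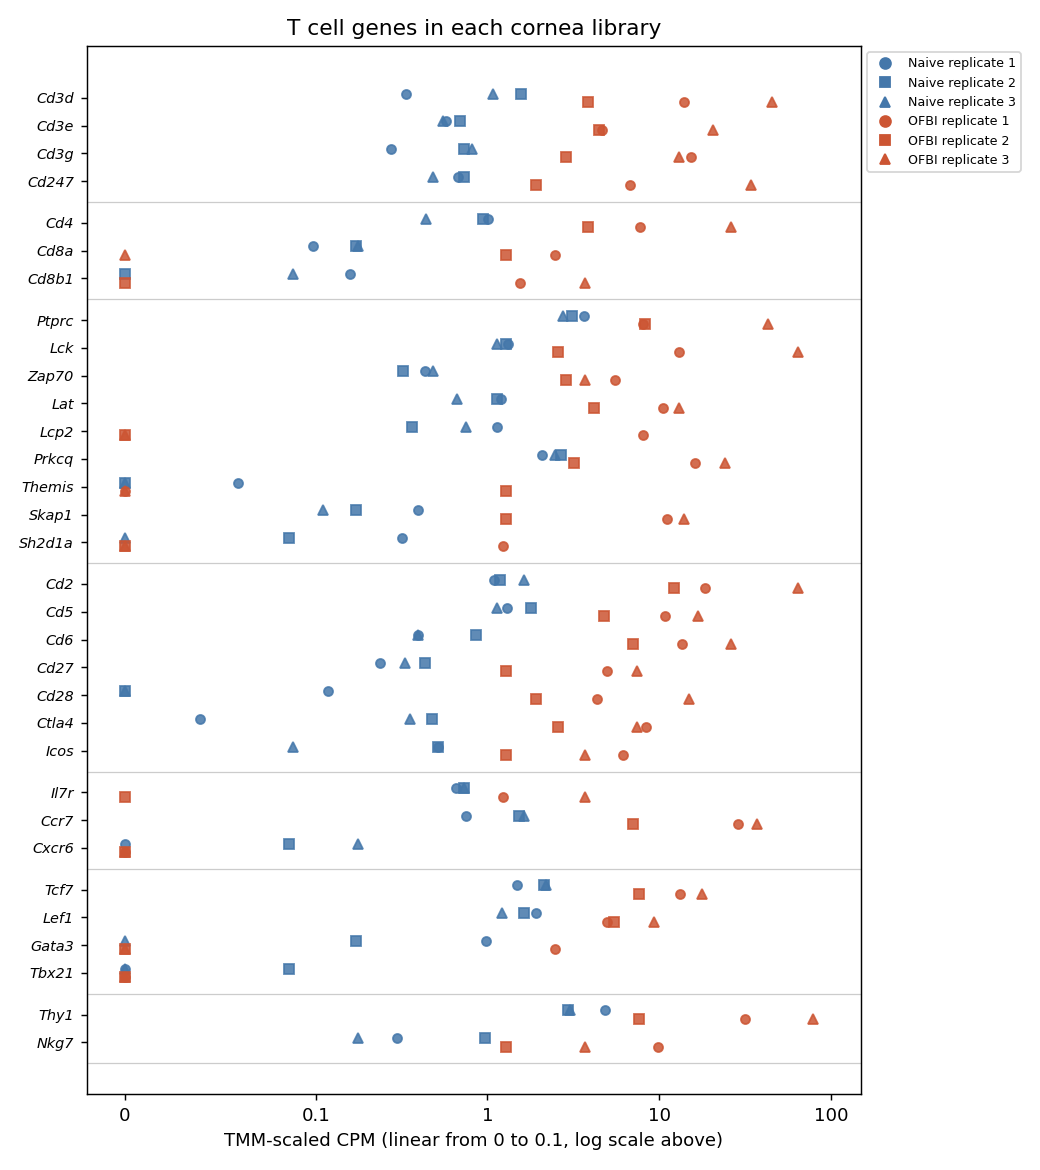
TMM-scaled CPM of the 32 T cell genes in each of the 6 libraries, grouped by role; the axis is linear from 0 to 0.1 and logarithmic above, and each point is 1 library. OFBI replicate 2 is the lowest of the 3 OFBI libraries for 23 genes and replicate 3 the highest for 20, and most OFBI points lie to the right of the Naive points of the same gene.

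All 4 CD3 chain genes were called higher, and none of them reached 2 CPM in a Naive library. Cd3d and Cd3g did not reach the filter level in every Naive library. Cd3d, a CD3 chain that pairs with CD3 epsilon, had 45, 12 and 49 counts in OFBI replicates 1 to 3, in that order here and below, against 17, 73 and 49 in Naive replicates 1 to 3. Cd3e, the chain on which receptor assembly depends, had 15, 14 and 22 counts in OFBI and 29, 32 and 25 in Naive libraries. The shallowest OFBI library held the most counts of both genes among the OFBI libraries, and it held about as many as a Naive library of far greater depth. Cd3g had 50, 9 and 14 counts in OFBI and 14, 34 and 37 in Naive libraries, and Cd247, the zeta chain with the most signalling motifs, had 22, 6 and 37 against 34, 34 and 22. In CPM the OFBI libraries lay above the Naive libraries for each chain, with 9.86 ± 9.19 CPM in OFBI (SD, n = 3) and 0.604 ± 0.0748 CPM in the Naive group (SD, n = 3) for Cd3e. The log2 fold change of Cd3e was 3.95 ± 0.81 (SE, adjusted p = 0.0235 by edgeR). Those of Cd3d, Cd3g and Cd247 were 4.35, 4.08 and 4.43. Without OFBI replicate 3 the value of Cd3e was 2.90, and those of Cd3d, Cd3g and Cd247 were 3.14, 3.90 and 2.77. Without OFBI replicate 1 that of Cd3g was 3.49.

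The 2 coreceptors differed in how well they could be measured. Cd4, which recognises MHC class II together with the receptor, had 25, 12 and 28 counts in OFBI and 51, 44 and 20 in Naive libraries, for a fitted log2 fold change of 3.91 ± 0.89 (SE, adjusted p = 0.0286 by edgeR). Without OFBI replicate 3 it was 2.84. Macrophages can also carry Cd4. The CD8 chains, which recognise MHC class I, stayed near the detection limit in both groups. Cd8a had 8, 4 and 0 counts in OFBI and 5, 8 and 8 in Naive libraries, and Cd8b1 had 5, 0 and 4 against 8, 0 and 4. Neither CD8 gene passed the filter, and both OFBI sums were at or under the floor of 12 counts, so neither was tested in the main fit. Against the Naive share, Cd8a counts were 14.8, 7.54 and 0 times those that the depths of OFBI replicates 1 to 3 would give. For Cd8b1 they were 16.2, 0 and 37.7 times, and for Cd4 8.47, 4.13 and 27.6 times. The CD8 counts are too few to read as a difference or as none. Whether Cd4 and the CD8 genes differed from each other was not tested.

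Among CD45 and the 8 proximal signalling genes, 7 were tested and 4 were called higher: Lck, Zap70, Lat and Skap1. Of these, Zap70 and Skap1 did not reach the filter level in every Naive library. Lck, the kinase that starts receptor signalling, had 42, 8 and 69 counts in OFBI and 67, 60 and 52 in Naive libraries. OFBI replicate 3 held the most Lck counts of all 6 libraries although it was the shallowest, and OFBI replicate 2 held the fewest. Its log2 fold change was 4.34, and 2.62 without OFBI replicate 3. Zap70 had 18, 9 and 4 counts in OFBI and 22, 15 and 22 in Naive libraries, for a fitted log2 fold change of 3.29 ± 0.51 (SE, adjusted p = 0.0131 by edgeR).

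Of the tested adaptors, Lat and Skap1 were called higher and Lcp2 was not. Lat, the membrane adaptor on which signalling complexes assemble, had 34, 13 and 14 counts in OFBI and 61, 53 and 30 in Naive libraries, for a fitted log2 fold change of 3.17 ± 0.66 (SE, adjusted p = 0.0240 by edgeR). Lcp2, the cytosolic adaptor SLP-76 that works with Lat, had 26, 0 and 0 counts in OFBI and 57, 17 and 34 in Naive libraries. Only OFBI replicate 1 held Lcp2, so the groups overlapped and the fitted value of 1.99 ± 1.31 (SE) did not pass the test. At the Naive share the depths of OFBI replicates 1 to 3 would give 2.77, 2.73 and 0.954 Lcp2 counts. Whether Lat and Lcp2 differed from each other was not tested. Skap1, an adaptor of T cell adhesion, had 36, 4 and 15 counts in OFBI and 20, 8 and 5 in Naive libraries, and OFBI replicate 1 held the most of all 6 libraries. The fit put its log2 fold change at 5.21 ± 1.06 (SE, adjusted p = 0.0229 by edgeR).

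Ptprc, which encodes CD45, the phosphatase of all leukocytes that primes Lck, had 26, 26 and 46 counts in OFBI and 184, 145 and 126 in Naive libraries. Prkcq, the kinase that links the receptor to NF-kB and is also made in muscle, had 52, 10 and 26 against 106, 125 and 112. In both genes every OFBI library lay above every Naive library in CPM, with log2 fold changes of 2.57 and 2.55 that missed the threshold (edgeR adjusted p = 0.0568 and 0.0566). The log2 fold change of Ptprc was 1.35 without OFBI replicate 3. Themis, needed for T cell selection in the thymus, had 0, 4 and 0 counts in OFBI and 3, 0 and 0 in Naive libraries. Sh2d1a, the adaptor SAP, had 4, 0 and 0 against 16, 4 and 0. Neither was tested.

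All 7 adhesion and costimulation genes were called higher, but among them only Cd2 and Cd5 reached the filter level in every Naive library. Cd2, an adhesion receptor, had 60, 38 and 69 counts in OFBI and 55, 55 and 74 in Naive libraries, close to equal counts at very unequal depth. Its level was 31.6 ± 28.4 CPM in OFBI (SD, n = 3) and 1.30 ± 0.289 CPM in the Naive group (SD, n = 3). The fit put its log2 fold change at 4.56 ± 0.74 (SE, adjusted p = 0.0140 by edgeR), and it was 3.55 without OFBI replicate 3. Cd6, a receptor that binds ALCAM, had 44, 22 and 28 counts in OFBI and 20, 40 and 18 in Naive libraries, for a fitted log2 fold change of 4.78 ± 0.76 (SE, adjusted p = 0.0137 by edgeR). Its neighbour Cd5, which dampens receptor signalling and lies beside it on chromosome 19, had 35, 15 and 18 counts against 66, 83 and 52. The log2 fold change of Cd5 was 2.90.

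Costimulatory receptors rested on fewer counts. Cd28, the main costimulatory receptor, had 14, 6 and 16 counts in OFBI and 6, 0 and 0 in Naive libraries. Its Naive level is under the floor of 12 counts over the group, so its fitted log2 fold change of 7.15 ± 1.44 (SE, adjusted p = 0.0226 by edgeR) depends on the prior count of the fit, and it was 6.10 without OFBI replicate 3. The ratio of summed counts per depth was 100.4 with an exact 95% interval of 17.8 to 1580, if 4 counts are taken as 1 fragment. Ctla4, which competes with CD28 for its ligands, had 27, 8 and 8 counts in OFBI and 2, 22 and 16 in Naive libraries, and Icos had 20, 4 and 4 against 26, 24 and 4. Icos did not pass without OFBI replicate 1 (log2 fold change 2.49, adjusted p = 0.159 by edgeR) and missed the threshold without OFBI replicate 3 and without a filter (adjusted p = 0.0527 and 0.0661 by edgeR). Cd28, Ctla4 and Icos lie next to each other on chromosome 1, and in each of them every OFBI library lay above every Naive library in CPM. Cd27, a costimulatory receptor of the TNF receptor family, had 16, 4 and 8 counts against 12, 20 and 15, for a fitted log2 fold change of 3.67 ± 0.72 (SE, adjusted p = 0.0214 by edgeR).

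Of the homing and survival receptors, Ccr7 was called higher and Il7r was not. Ccr7, which guides T cells and dendritic cells to lymph nodes, had 93, 22 and 40 counts in OFBI and 38, 71 and 74 in Naive libraries. Its level was 24.3 ± 15.6 CPM in OFBI (SD, n = 3) and 1.30 ± 0.481 CPM in the Naive group (SD, n = 3), for a fitted log2 fold change of 4.20 ± 0.74 (SE, adjusted p = 0.0171 by edgeR). Il7r, the interleukin-7 receptor chain that keeps resting T cells alive, had 4, 0 and 4 counts in OFBI and 33, 34 and 33 in Naive libraries. The groups overlapped, and its log2 fold change of 0.87 ± 0.99 (SE) was -0.18 without OFBI replicate 3. Cxcr6, a receptor of T cells that stay in tissues, was at 0 in all OFBI libraries and had 0, 4 and 8 counts in Naive libraries, under the OFBI floor.

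Among the transcription factors, Tcf7 and Lef1 were called higher and Gata3 and Tbx21 were too low to test. Tcf7, a factor of naive and memory T cells, had 43, 24 and 19 counts in OFBI and 75, 99 and 99 in Naive libraries. The fit put its log2 fold change at 2.72 ± 0.55 (SE, adjusted p = 0.0231 by edgeR). Lef1, which acts with Tcf7 and also in epithelia that respond to Wnt, had 16, 17 and 10 counts against 97, 76 and 55, with a log2 fold change of 2.01. Gata3, a factor of type 2 helper cells and of several epithelia, had 8, 0 and 0 counts in OFBI and 50, 8 and 0 in Naive libraries. Tbx21, the T-bet factor of type 1 helper cells, was at 0 in OFBI and had 0, 4 and 0 counts in Naive libraries. These counts could not show a helper cell type.

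Thy1 was called higher, and Nkg7 missed the threshold. Thy1, a surface protein of T cells that nerve cells and fibroblasts also make, had 102, 24 and 84 counts in OFBI and 245, 137 and 137 in Naive libraries, the most of any member in Naive replicates 1 and 3. Its log2 fold change was 3.39, and 2.43 without OFBI replicate 3. Nkg7, a granule protein of cytotoxic T and natural killer cells, had 32, 4 and 4 counts in OFBI and 15, 45 and 8 in Naive libraries, for a fitted log2 fold change of 3.39 ± 0.99 (SE, adjusted p = 0.0542 by edgeR). Without OFBI replicate 1, which held most of its OFBI counts, it was 2.13.

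**Figure D2:**
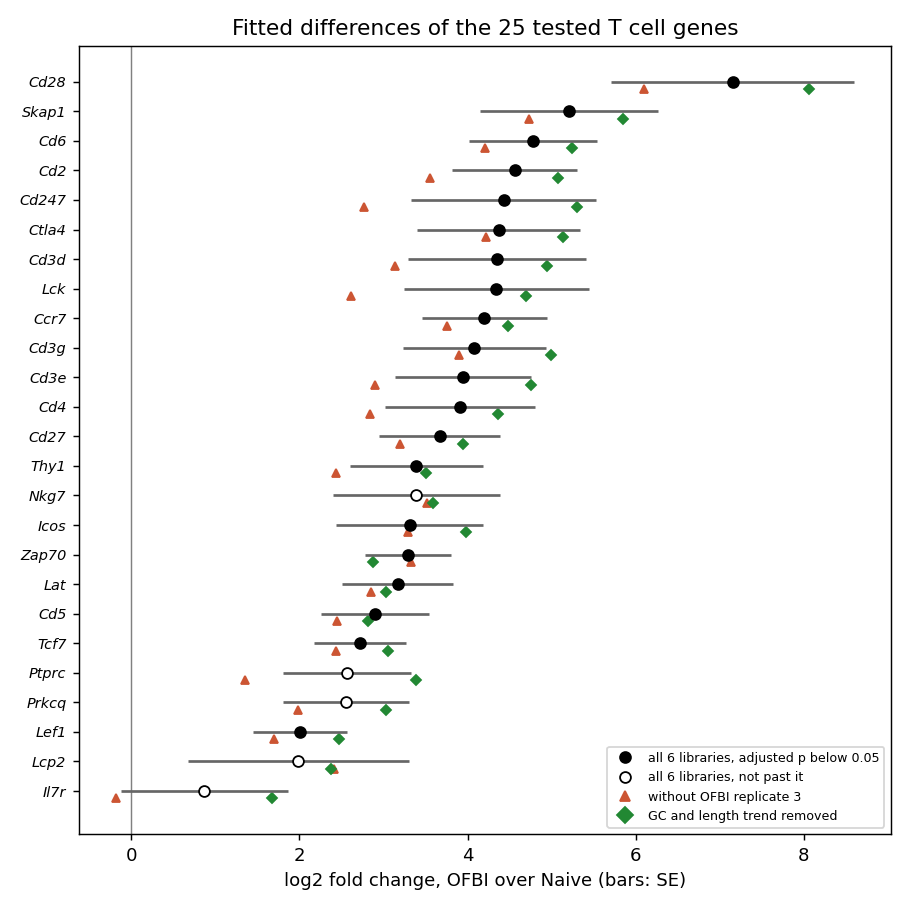
Log2 fold changes of the 25 tested T cell genes, OFBI over Naive, with the SE as bars; filled circles passed an adjusted p of 0.05 in edgeR and open circles did not. Triangles give the fit without OFBI replicate 3, which is lower for genes such as Lck and Cd247, and diamonds the fit with a GC and length trend removed.

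Levels can be compared between genes only per length, here as CPM per kb of exon, with all annotated exons of a gene joined. In OFBI corneas the highest mean levels were those of Cd2 with 18.2, Thy1 with 13.1, Ccr7 with 12.3, Cd3d with 11.6 and Lck with 9.08 CPM per kb. In Naive corneas they were Thy1 with 1.20, Cd2 with 0.747, Tcf7 with 0.736, Ccr7 with 0.659 and Cd3d with 0.549 CPM per kb. The same 4 genes, Cd2, Thy1, Ccr7 and Cd3d, were thus among the first 5 of both groups. Within the complex, Cd3d stood above Cd3e, Cd3g and Cd247 in both groups, with 11.6 against 2.42, 3.20 and 2.70 CPM per kb in OFBI and 0.549 against 0.148, 0.186 and 0.118 in Naive corneas. In OFBI the spread of Cd3d between pools, 21.1 ± 21.8 CPM (SD, n = 3), is as large as its mean, so this order is a description of means. It also depends on the joined lengths, 1815 bases for Cd3d and 4080, 3269 and 5329 for Cd3e, Cd3g and Cd247. Lengths of single transcripts were not used.

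Within the OFBI group the members did not follow depth, and neither did several of the other lists described below. OFBI replicate 3 had a depth of 1 part in 2.91 of replicate 1 and 2.86 of replicate 2, or -1.53 on the log2 scale against the mean of both. For the 25 members with counts on both sides, the counts of replicate 3 over the mean count of replicates 1 and 2 had a median log2 ratio of -0.25, while over 9964 tested genes it was -1.59. The same median was -0.24 for cardiomyocyte markers, -0.04 for T cell state genes and 1.88 for hepatocyte markers. It was -0.62 for macrophage and dendritic markers, -1.22 for other pathway genes and -1.77 for cornea markers. Genes at 0 in replicate 3 are left out of all these medians, which can raise the median where counts are few. The members were not set beside genes of like abundance. In 11 of the 32 members, untested ones included, replicate 3 held more counts than the mean of replicates 1 and 2, as did 5.50% of all tested genes. Cd247, Lck, Ptprc, Cd3d and Cd2 had log2 count ratios of 1.40, 1.46, 0.82, 0.78 and 0.49, whereas Zap70, Icos and Nkg7 had -1.75, -1.58 and -2.17, near the ratio of the depths. Against the Naive share, the counts of Lck were 9.14, 1.77 and 43.6 times those that the depths of OFBI replicates 1, 2 and 3 would give, and the counts of Zap70 11.9, 6.04 and 7.67 times.

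**Figure D3:**
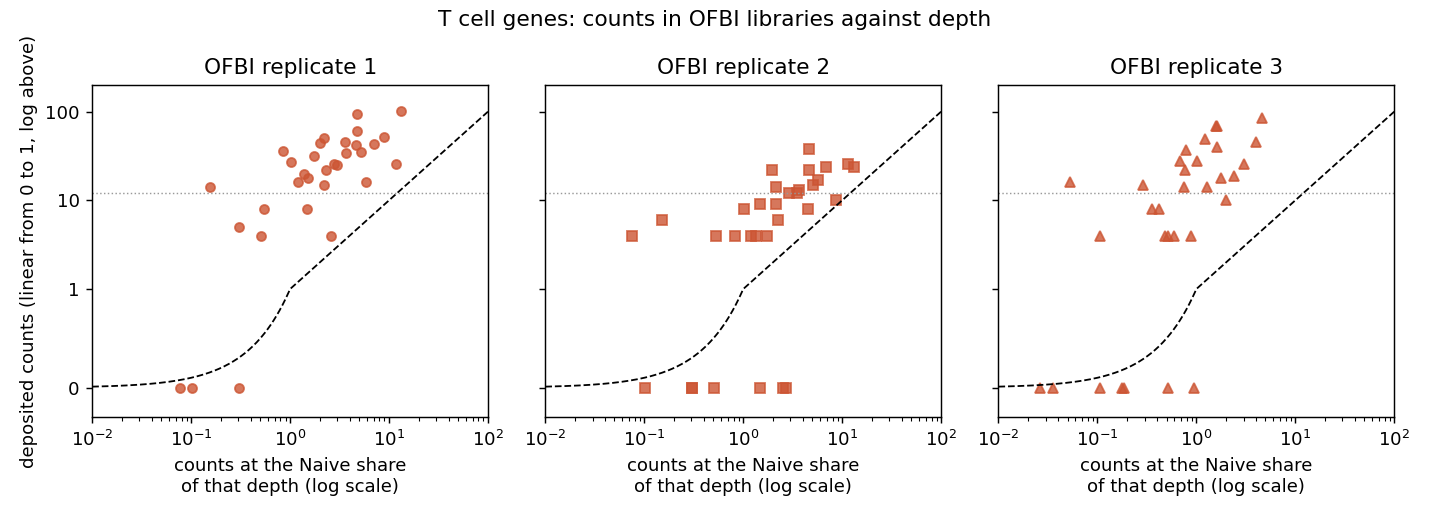
Deposited counts of the 32 T cell genes in each OFBI library against the counts that the library's depth would give at the Naive share; the dashed line marks equality and the dotted line the floor of 12 counts. Points above the dashed line hold more counts than depth gives, and the summed counts were 9.1, 3.2 and 18.4 times that in replicates 1, 2 and 3.

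Many members rested on few counts. Only 11 of the 32 had at least 12 counts in every OFBI library, 23 had a count above 0 in every OFBI library, and 8 were at or under 12 counts summed over the OFBI group. In the far deeper Naive libraries 20 had at least 12 counts in each library and 8 reached 1 CPM in each. When the Naive libraries were thinned to match OFBI replicate 1, 13 members could be tested and 8 were called higher, against 9.21% of the genes tested. When all libraries were thinned to match OFBI replicate 3, 3 members could be tested and all 3 were called higher, against 9.10%. At these depths members low in Naive corneas passed the filter through their OFBI counts, all 3 of the last run included. No member was above 4.84 CPM in a Naive library. Being called higher was thus favoured by the filter, and nothing is read from these calls.

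Other genes of the receptor pathway, a list of 40 that are mostly made in many cell types, were tested in the same fit. Of 31 tested, 5 were called higher and 0 lower by edgeR, against 8.41% and 10.4% of all tested genes, and DESeq2 called 9 higher and 1 lower. Before adjustment, 10 were higher and 2 lower at p below 0.05, and the median log2 fold change was 0.10. The 5 were Csk, Evl, Wipf1, Dgkz and Grb2. Csk, the kinase that holds Lck in check and acts in most cells, had 2752, 2277 and 932 counts in OFBI and 14315, 12085 and 11904 in Naive libraries, for a fitted log2 fold change of 1.60 ± 0.13 (SE, adjusted p = 0.0053 by edgeR). Evl and Wipf1, regulators of actin, had log2 fold changes of 2.45 and 1.87, and Dgkz, which removes the messenger diacylglycerol, one of 0.52. Cd40lg, a ligand made mostly by activated T cells and picked after its values were seen, was at 0 in all 6 libraries. Without OFBI replicate 2, 8 of these genes were higher, and without Naive replicate 1, 2 or 3, 1, 0 and 1 were.

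Of 33 genes of T cell states, 19 were tested, 12 were called higher and 0 lower, with a median log2 fold change of 3.38. Over all tested genes 8.41% were called higher and 10.4% lower. Here too, genes low in Naive corneas, such as Gzmb, could pass the filter through their OFBI counts alone. This list was written with earlier results known, and the genes named next were chosen after their values were seen. The interleukin-2 receptor chain Il2rb had 39, 18 and 38 counts in OFBI and 28, 28 and 20 in Naive libraries, with a log2 fold change of 5.00. Gzmb, a granule protease of cytotoxic cells, had 30, 48 and 76 against 64, 10 and 6, with a log2 fold change of 5.81, while Prf1, its partner perforin, was at 0 in all 6 libraries. The log2 fold change of S1pr1, through which lymphocytes leave lymph nodes, was 2.93. Foxp3, Cxcr3, Gzma and the tissue retention integrin Itgae were at 0 in all OFBI libraries and at 13 counts or fewer in each Naive library. At the depth of the OFBI libraries such zeros could not show absence. None of the 7 receptor constant region symbols on the list was matched in the tables, so these are not analysed here.

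Other cell types were read from their own lists in the same libraries. Of 14 B cell markers, 2 were tested, Cd79b and Cd37, and neither was called (adjusted p = 0.499 and 0.0739 by edgeR), 11 were at 0 in all OFBI libraries, Ms4a1 and Cd79a among them, and the list summed to 3.09, 1.28 and 19.5 CPM in OFBI and 2.53 to 3.04 in Naive libraries. Of 10 natural killer markers 6, Ncr1 and Klrb1c among them, and of 7 thymocyte markers 6, Rag1 and Ptcra among them, were at 0 in all OFBI libraries. Of these, 5 natural killer and 3 thymocyte markers, the 4 named genes included, were also at 0 in all Naive libraries. For Ms4a1 the Naive share would give 0.103, 0.101 and 0.0353 counts at the depths of OFBI replicates 1 to 3. For Cd79a it would give 0.128, 0.126 and 0.0442. At this depth a 0 in OFBI could not show that a marker was absent. The tested genes Eomes, Klra4 and, of the thymocyte list, Ccr9 had log2 fold changes of 1.88, -0.44 and -1.48 that did not pass the test. Macrophage and dendritic markers summed to 148, 208 and 248 CPM in OFBI and 230 to 256 in Naive libraries. Of these, 1 of 12 tested was called higher and 1 lower, against 8.41% and 10.4% of all tested genes. The most abundant of these markers, Itgam and Lyz2, had log2 fold changes of -0.69 and 0.24 that did not pass the test. Red cell markers summed to 19.5, 27.5 and 13.0 CPM in OFBI and 61.4 to 76.4 in Naive libraries, with Hba-a1 called lower, a gene whose counts are uncertain because Hba-a2 is a near copy of it.

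Lists of distant tissues were also higher in OFBI than in Naive libraries. Hepatocyte markers summed to 262, 289 and 1290 CPM in OFBI and 59.6 to 81.0 in Naive libraries, and none of the 21 was at 0 in all OFBI libraries. Of these, 9 of 10 tested were called higher, against 8.41% of all tested genes, the most abundant being Alb and Trf. Cardiomyocyte markers summed to 189, 29.1 and 248 CPM in OFBI and 20.0 to 24.8 in Naive libraries, and 1 of 14, Myl4, was at 0 in all OFBI libraries. Of these, 5 of 10 tested were called higher, against the same 8.41%, the most abundant being Myh6 and Tnnt2. In both lists, genes low in Naive corneas could pass the filter through their OFBI counts alone. The members, with 285, 102 and 596 CPM, and the cardiomyocyte list were both lowest in OFBI replicate 2, and the hepatocyte list in replicate 1. OFBI replicate 3 was the highest OFBI library for the members and for both of these lists, and also for the macrophage, B cell, other pathway, T cell state and cornea lists. The part of such tissue signals in the T cell gene result was not tested.

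**Figure D4:**
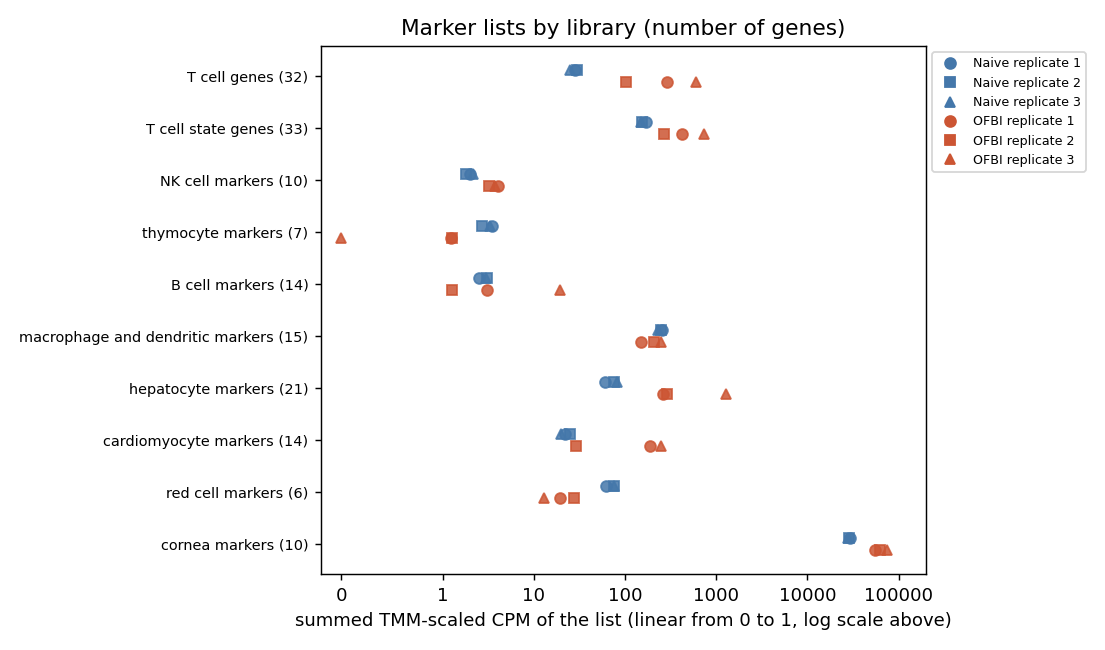
Summed TMM-scaled CPM of the T cell genes and of 9 other marker lists in each library, on an axis that is linear from 0 to 1 and logarithmic above. The T cell genes lie at 102 to 596 CPM in OFBI and 25.1 to 29.6 CPM in Naive libraries, and the hepatocyte and cardiomyocyte lists also lie higher in OFBI, while the red cell list lies lower.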

How the data were processed

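RNA from 6 pools of corneas was measured. The authors deposited estimated counts per gene symbol, 1 table per library, as whole numbers not scaled for depth. Per the labels' protocols, RNeasy columns and a stranded KAPA kit were used. The submitters' processing notes list HISAT2, StringTie, FastQC, DESeq2 and the build GRCm38. Versions, the strand setting and the annotation were not given in the sources used here. Of the deposited values from 1 to 40, multiples of 4 made up 39.4% to 50.5%.

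Of 22040 rows per table, 64 on 31 symbols were summed by symbol, which left 22007, and 26 rows with date-like names were kept apart. The test was edgeR 4.0.16 (R 4.3.3) with filterByExpr, TMM factors of 0.916 to 1.08 and a two-sided quasi-likelihood model of group alone. The SE is the log2 fold change over the square root of F, and CPM values are TMM-scaled unless said otherwise. The procedure was tested on simulated data. Alternatives were DESeq2 1.42.0, limma 3.58.1 (voom), other scalings and filters, a replicate block, thinned libraries, counts divided by 4, a GC and length trend removed and each library left out. DESeq2 with each library left out was added after the data were seen. Exon lengths and GC come from GENCODE mouse release 21 (GRCm38, 21710 symbols matched), and promoter windows from RefSeq. Libraries of a group differed by more than sampling noise, with a chi-square of 16.9 to 59.4 averaged over genes. All 6 carry the same batch label, so no batch comparison could be made.

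The members and lists were chosen with earlier results of these data known. The rule for named genes gave counts for members with over 12 counts in an OFBI or over 40 in a Naive library, and fit statistics for the 10 members and 4 other pathway genes of smallest p. It also gave the 2 most abundant tested genes of other lists. Further values were added after they were seen.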

Additional observations from a re-analysis of the deposited data

How the results depend on the processing

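Of the 25 tested members, 20 were called higher by edgeR with all 6 libraries. The count was 23 with DESeq2, 18 with limma-voom, without a filter and with counts divided by 4, 21 with a GC and length trend removed, and 19 with library size only, and 0 were lower in every alternative run. In the thinned runs fewer genes were tested, and members low in Naive corneas passed the filter through their OFBI counts. The count there was 8 of 13 with the Naive libraries thinned and 3 of 3 with all thinned. It was 2 with a replicate block. It ranged from 0 to 24 with 1 library left out in edgeR and from 18 to 24 in DESeq2; the 0 came without any one Naive library, where edgeR called 0.802%, 0% and 0.793% of all tested genes higher, and the cause was not tested. The replicate numbers did not pair the libraries: deviations of same-numbered libraries correlated at -0.02 to 0.01. Lcp2 and Il7r changed sign in some alternatives without passing the threshold, and the other 23 tested members stayed positive wherever they were tested.

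For the other pathway genes, 5 higher and 0 lower became 9 and 1 with DESeq2, 8 and 1 with counts divided by 4, 3 and 2 with library size only, 3 higher without a filter, with a GC and length trend removed and with all libraries thinned, and 1 higher with a replicate block. With 1 library left out they ranged from 0 to 8 higher and 0 to 1 lower in edgeR, and from 4 to 11 higher and 0 to 5 lower in DESeq2 (11, 10 and 11 higher without OFBI replicate 1, 2 and 3). With library size only, the median log2 fold change moved from -0.20 to -0.40 over all genes and from 3.67 to 3.47 over the members. Depth limits the result: 12 counts are 10.2 CPM in OFBI replicate 3.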
